A study of Mus musculus with 14 samples.

Results

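miR-122 and miR-802 are microRNAs (miRNAs) known from the liver, and both were followed here by name (mmu-miR-122 and mmu-miR-802) through every tissue of a mouse miRNA profile. They are 2 of the 1046 mature miRNA names in the table, and 805 of those names had any read. The series holds 14 libraries from C57BL/6J mice, an inbred laboratory strain, namely liver, pancreas, oesophagus, stomach, small intestine, colon, kidney, lung, heart, spleen, ovary, uterus, brain and cerebellum. Each tissue has 1 library of total RNA pooled over animals, and the labels name no treatment, sex or age. They give 5 mice for the harvest and 10 for the pool. Values are RPM, the reads of a name per 1000000 miRNA reads of its library. With no replicates, no test between tissues was possible, and the 95% intervals given are exact and cover counting error only. In whole tissues, fewer cells of a type and less miRNA per cell cannot be told apart.

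A mature miRNA is cut from one arm of a short RNA hairpin and guides an Argonaute protein to messenger RNAs, mostly through pairing of its seed, bases 2 to 8. miR-122 is known as the hallmark miRNA of hepatocytes, where it shapes cholesterol and lipid metabolism and is used by hepatitis C virus. miR-802 is known for being raised in the liver of obese mice. In the older naming used by the table, a star marks the arm of a hairpin taken as the less abundant one.

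The sequences of the miR-802 hairpin are shown because its 2 arms behaved differently between tissues. They are from RefSeq on build GRCm38.p6, whose arm names are newer. The plain name is taken here as the 5p arm and the star name as the 3p arm. This assignment was not checked, because the deposited table itself carries no sequence. Capitals mark the seed in each mature miRNA, and both mature arms in the hairpin.
miR-802-5p: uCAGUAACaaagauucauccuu
miR-802-3p: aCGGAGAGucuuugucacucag
mir-802 hairpin: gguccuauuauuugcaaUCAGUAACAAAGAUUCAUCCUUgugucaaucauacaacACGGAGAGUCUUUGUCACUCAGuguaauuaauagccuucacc

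The hairpin lies at chr16:93369720-93369816 on the plus strand, and its arms at chr16:93369737-93369758 and chr16:93369775-93369796. In GENCODE M21, 0 other genes overlap it, so it is intergenic there. The nearest gene on its strand is the non-coding 1810044K17Rik, which ends 691 bases before it. The nearest protein-coding genes are Setd4, 213641 bases after it, and Runx1, 543571 bases before it. Among 1679 mature mouse entries in RefSeq, the seed of the 5p arm occurred in 1, its own, and likewise that of the 3p arm. No other name shares a seed with miR-802 in this set.

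miR-122 was the most abundant miRNA of liver, and its level was at least 1083-fold lower in every other library with library totals. In liver it had 2775249 reads, which is 437407 RPM (interval 436892–437922) or 43.7% of all miRNA reads. The second name in liver, miR-378, held 14.1%. Of all miR-122 reads in the series, 99.8% came from the liver library, and 6157 reads came from the other 13.

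Outside the liver, miR-122 was highest in kidney with 404 RPM (391–417, 3727 reads). It stood at 121 RPM in cerebellum, 82.2 in brain, 72.9 in spleen, 72.7 in oesophagus and 55.4 in heart. Below these came stomach at 38.4 RPM, lung at 18.4, the colon-labelled library at 17.4, the uterus-labelled library at 12.2, pancreas at 9.64, small intestine at 7.71 and ovary at 1.32. Every library thus held some reads, but kidney reached only 0.0923% of the liver level. Liver was 1083-fold (1049–1119) above kidney, 45354-fold (20837–123587) above pancreas and 56747-fold (45061–72527) above small intestine. The ovary value rests on 3 reads, and the ratio of liver to ovary was 330566 (113113–1602945).

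In this order, 8 of the 13 steps between neighbouring tissues had a counting interval above 1. The other 5 did not differ beyond counting error, namely brain and spleen (1.13-fold, 0.977–1.30), spleen and oesophagus (interval 0.865–1.16), lung and the colon library, the uterus library and pancreas, and pancreas and small intestine. The step from liver to kidney was the widest, and the next widest were small intestine over ovary (5.83-fold, 1.92–28.9) and kidney over cerebellum (3.34-fold, 2.82–3.99).

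miR-802 did not have its highest level in liver. Pancreas held 291 RPM (250.1–337, 181 reads), small intestine 202 RPM (193–212, 1889 reads) and liver 43.3 RPM (38.4–48.8, 275 reads). Liver thus held the lowest level of these 3. Pancreas was 6.71-fold (5.53–8.13) above liver, and small intestine 4.67-fold (4.11–5.31) above liver.

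Lower levels of miR-802 were found in brain with 13.0 RPM (10.1–16.4), kidney with 11.5 (9.40–13.9) and stomach with 10.3 (8.26–12.7). It stood at 3.91 RPM in the library labelled uterus, 3.43 in oesophagus and 2.69 in lung. Cerebellum, spleen, the colon library and heart had 1, 3, 4 and 1 reads, and ovary had 0. In ovary a floor of 3 reads is 1.32 RPM, and the exact upper bound at 0 reads is 1.63 RPM. With library totals, the levels therefore fall into 3 libraries above 40 RPM and 11 at 13.0 RPM or less. Of 13 steps in this order, 4 had an interval above 1: pancreas over small intestine (1.44-fold, 1.23–1.68), small intestine over liver, liver over brain (3.34-fold, 2.56–4.41) and stomach over the uterus library (2.64-fold, 1.76–4.05).

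**Figure D1:**
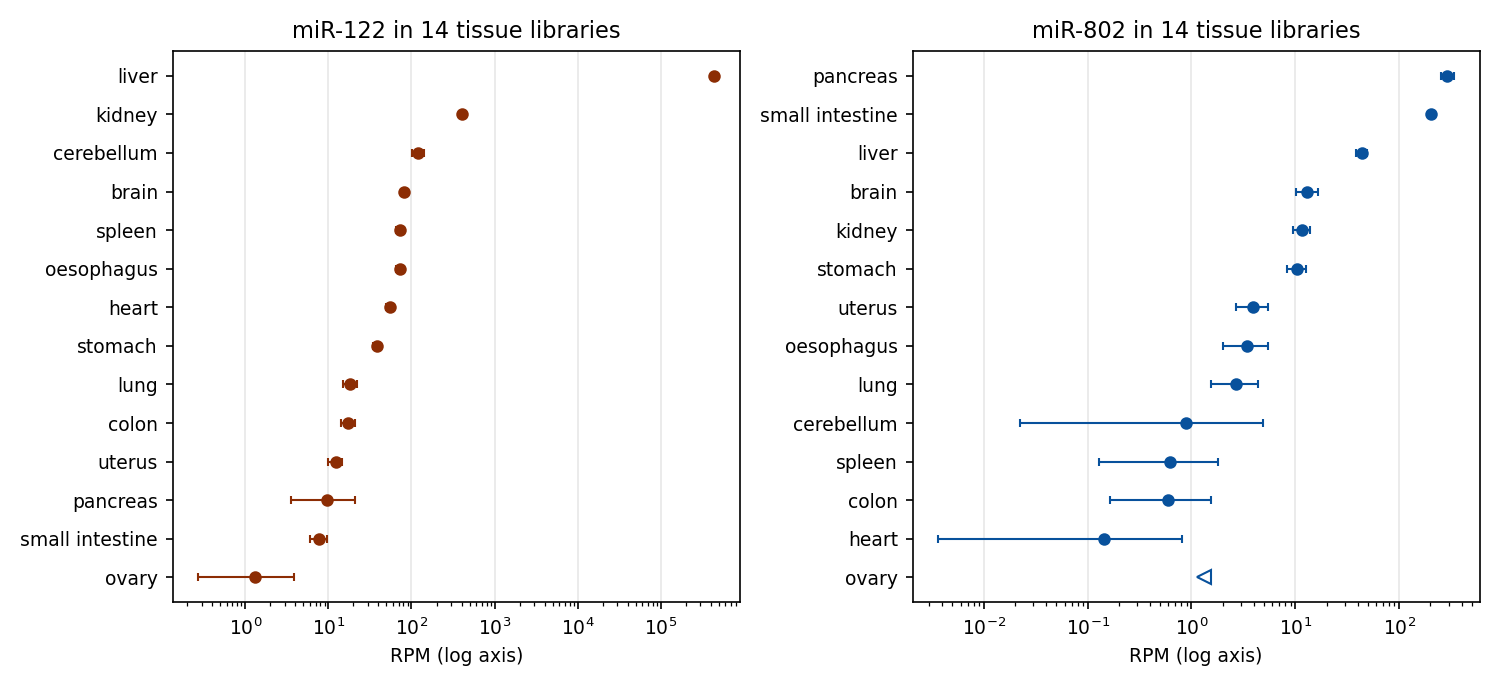
Level of miR-122 (left) and miR-802 (right) in each of 14 tissue libraries, in RPM on a log axis, with tissues ordered by level. Points are single libraries, bars are exact 95% Poisson intervals, and the open triangle is the limit allowed by 0 reads. miR-122 falls from 437407 RPM in liver to 404 RPM in kidney, whereas miR-802 has 291 RPM in pancreas, 202 in small intestine and 43.3 in liver.

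The rank of each name within its own library does not depend on how libraries are scaled to each other. miR-122 ranked 1 of 434 names with reads in liver, 70 of 554 in kidney, 44 of 283 in the library labelled colon, 106 of 240 in pancreas and 189 of 556 in small intestine. miR-802 ranked 36 of 240 in pancreas, 70 of 556 in small intestine and 90 of 434 in liver. In brain, the next tissue by RPM, it ranked 301 of 670. Pancreas, small intestine and liver therefore also came first for miR-802 by its place within the library.

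The ratio of the 2 names within a library is likewise free of scaling. Liver held 10092 (8967–11400) reads of miR-122 per read of miR-802. In kidney this ratio was 35.2 (29.0–43.1) and in brain 6.33 (4.90–8.29). The order of the pair was inverted in 2 libraries, with 30.2 (13.6–83.3) reads of miR-802 per read of miR-122 in pancreas and 26.2 (20.7–33.7) in small intestine. In stomach and the library labelled uterus the names were closest, at 3.72 (2.93–4.77) and 3.12 (2.10–4.73) reads of miR-122 per read of miR-802. Reads of different miRNAs can be captured with different efficiency, so these ratios compare libraries rather than molecule numbers. Across the 14 tissues, Pearson's r between both names was 0.19 on log2(RPM + 1) and Spearman's rho 0.11, given as a description of libraries that differ in depth and in their leading miRNA.

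By a rule of size that calls a name tissue-enriched when its highest library has at least 100 RPM and 5 times the second, 5.47% of the 805 names were called. miR-122 was called in liver, where it was the 1 name of 805 (0.124%). Its ratio of 1081 to the second tissue, with 1 RPM added to both, was the largest of the 44 called names, ahead of 46.3 for miR-137 in brain. miR-802 was not called, since small intestine held 69.5% of its pancreas level, but miR-802* was called in pancreas with a ratio of 8.02 to liver. The specificity index tau, which is 0 for an even level and 1 for a name found in a single tissue, was 0.731 for miR-122 and 0.691 for miR-802, against a median of 0.640 over the 418 names that reached 10 RPM anywhere. For miR-122, 148 names had a higher index. The index is taken on log2(RPM + 1), on which the low reads of the other 13 libraries count.

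At least 4-fold higher in pancreas than in liver, with 100 RPM or more in pancreas, were 1.74% of names, and miR-802 was among them. The same rule for small intestine over liver called 3.73%, again with miR-802. For miR-122 the reverse held, and it was among the 4.47% called for liver over pancreas, the 1.12% for liver over small intestine and the 0.497% (4 names) for liver over kidney.

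Markers of pancreas and intestine were measured beside miR-802. The 3 acinar names miR-216a, miR-216b and miR-217, known from the enzyme-secreting cells of the pancreas, summed to 3710 RPM in pancreas and to 18.2 RPM in small intestine, which is 0.491% of the pancreas sum. The intestinal names miR-192, miR-194 and miR-215 summed to 212864 RPM in small intestine and 526 RPM in pancreas. Their sum is not confined to gut, with 50857 RPM in liver and 23481 RPM in kidney, and miR-192 alone was highest in liver. miR-122, the hepatocyte marker, stood at 9.64 RPM in pancreas and 7.71 in small intestine, below miR-802 in both. In brain the acinar sum was 112 RPM and in cerebellum 137 RPM, and miR-802 had 13.0 RPM in the first and 1 read in the second. The part of such marker reads in the miR-802 level of brain was not tested.

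The library labelled uterus held the intestinal names at 78772 RPM, 37.0% of their sum in small intestine, while the library labelled colon held them at 25.2 RPM. In that colon library miR-143 took 98.7% of the reads. Leaving miR-143 out of its total raises every other name there by 6.27 (log2). miR-802 in the uterus library was 1.93% of its small intestine level. Small intestine was 51.7-fold (36.9–74.9) above the uterus library and 19.6-fold (15.8–24.6) above stomach for miR-802. The 2 libraries with the largest intestinal marker sums thus differed far more in miR-802 than in those markers.

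The arms of the miR-802 hairpin were used differently between the 3 tissues with its highest levels. The star arm gave 42.0% (36.4–47.7%) of the hairpin's 312 reads in pancreas and 36.9% (32.4–41.6%) of 436 reads in liver, but 5.97% (4.98–7.10%) of 2009 reads in small intestine. Among other libraries with at least 99 reads of the hairpin, the share was 30.3% (21.5–40.4%) in brain, 19.7% (13.3–27.5%) in kidney and 18.7% (11.8–27.4%) in stomach. The intervals of pancreas and liver overlapped, and that of small intestine lay below those of pancreas, liver, brain, kidney, stomach and the uterus library (19.0%, 8.60–34.1%). Lung (20.0% of 20 reads) and oesophagus (5.26% of 19 reads) had wide intervals, and the remaining libraries held 5 reads or fewer.

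In small intestine the ratio of star to plain arm was 9.19 times lower than in liver and 11.4 times lower than in pancreas, with 0.5 reads added to each arm. Between liver and pancreas it differed 1.24-fold. Arm ratios differed in other hairpins too. Of 76 hairpins with 100 reads or more over both arms in small intestine and liver, 14.5% had a ratio at least 4 times lower in small intestine, and 9 of the 76 had one at least 4 times higher. The ratio was as low as that of miR-802 or lower in 7 of the 76, miR-802 included. Against pancreas, 26.7% of 30 hairpins (8) were at least 4 times lower and 8 at least 4 times higher, and miR-802 was among the 3 lowest. The median difference over all hairpins was −0.07 (log2) for small intestine against liver and 0.55 against pancreas.

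**Figure D2:**
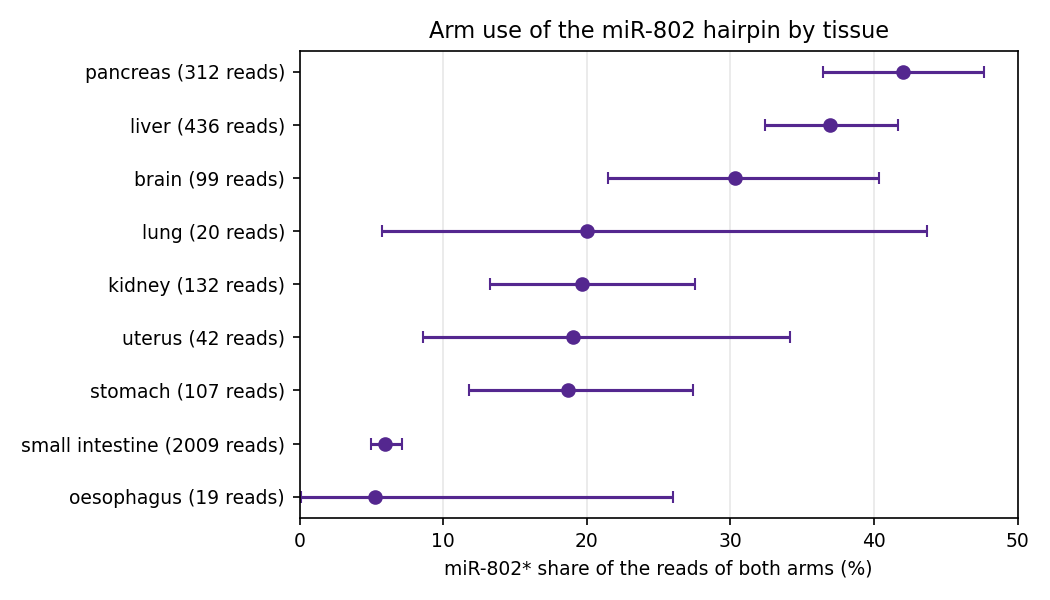
Share of miR-802* in the reads of both arms of the miR-802 hairpin, in percent, for the 9 libraries with at least 10 such reads. Points are single libraries and bars are exact 95% binomial intervals. Small intestine lies at 5.97% with a narrow interval, while pancreas and liver lie at 42.0% and 36.9%.

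The 2 arms gave different orders of tissues. miR-802* stood at 211 RPM in pancreas, 25.4 in liver and 12.8 in small intestine. With library totals its level was 1.98-fold (1.55–2.52) higher in liver than in small intestine, whereas the plain arm was 4.67-fold higher in small intestine than in liver. With totals without miR-143 the star arm was level between both, at 0.976-fold (0.766–1.25). Pancreas was highest for the star arm under all 4 scalings tried, by 8.30-fold (6.54–10.5) over liver with library totals.

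For miR-122, reads of the star arm were seen only in liver, with 72 reads or 11.3 RPM. It made up 0.00259% (0.00203–0.00327%) of the hairpin's liver reads, so one arm gave nearly all of them. At that ratio the 6157 reads of miR-122 in the other 13 libraries would come with 0.160 star reads. The 0 seen therefore cannot show whether the share there equals that of liver. In kidney 0 of 3727 reads allows a star share of up to 0.0989% at the upper bound of the interval. A share as low as that of liver could not be told in kidney from a lower one, or from a higher one up to that bound. In the remaining libraries the upper bounds were higher still, from 0.841% in brain upward.

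miR-143, a miRNA of smooth muscle and other mesenchymal cells, took from 4.01% of the reads in pancreas to 98.7% in the library labelled colon, and this bears on RPM values of both names. It held 6.14% in liver, 29.6% in kidney and 53.6% in small intestine. Leaving miR-143 out of the totals shifted the log2 level of every name by 0.09 in liver, 0.06 in pancreas, 0.51 in kidney, 1.11 in small intestine and 6.27 in the library labelled colon. Median-of-ratios size factors shifted it by 0.12, 1.63, −1.75, −0.26 and 4.21 in the same libraries.

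Liver was highest for miR-122 under all 4 scalings, but the tissue in second place was not the same. With totals without miR-143 the library labelled colon came second at 1340 scaled RPM from 116 reads, ahead of kidney at 573, and liver was 348-fold (290–421) above it. With median-of-ratios factors the colon library was also second and liver 1471-fold (1227–1780) above it. Kidney itself stayed between 813-fold and 3949-fold below liver under the 4 scalings. The kidney level of miR-122 was above that of cerebellum under each of them, by 2.15-fold to 4.53-fold.

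For miR-802 the first place changed. Pancreas was 1.44-fold above small intestine with library totals and 5.36-fold (4.58–6.25) with median-of-ratios factors, but once miR-143 was left out of the totals small intestine had 436 scaled RPM and pancreas 303, a ratio of pancreas to small intestine of 0.695 (0.594–0.810). Liver stayed below both under all 4 scalings. Pancreas was 6.56-fold to 19.2-fold and small intestine 3.59-fold to 9.44-fold above liver. With totals without miR-143 the colon library, with 4 reads, was level with liver at 46.2 scaled RPM each. Stomach, with 87 reads, followed at 34.6, so the gap between liver and the lower libraries depends on the scaling.

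**Figure D3:**
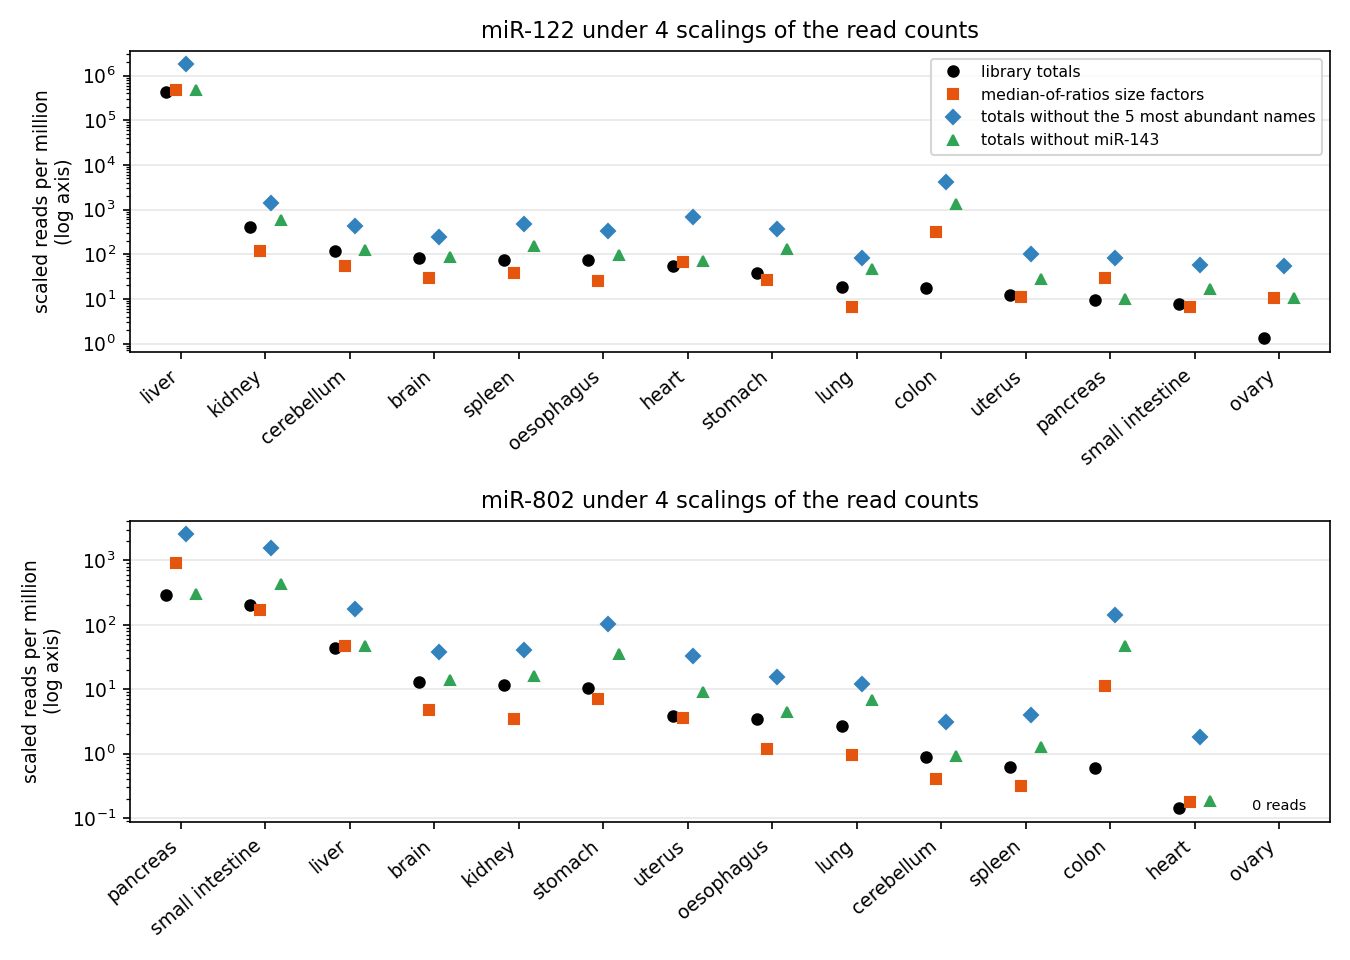
Level of miR-122 (top) and miR-802 (bottom) in each library under 4 scalings of the counts, in scaled RPM on a log axis, with tissues ordered by library totals. Points are single libraries, and miR-802 had 0 reads in ovary. Liver is highest for miR-122 under each scaling, while pancreas and small intestine exchange first place for miR-802 and the colon library moves the most.

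Both names were then set among the 11 names of a hepatocyte list, made of miRNAs known from liver. Not all were abundant in this liver library, where miR-193 had 2.99 RPM, miR-365 4.41 and miR-122* 11.3. miR-193 reached at most 9.97 RPM, in kidney, so it is not among the 418 names that reached 10 RPM. In liver 10 of the 11 lay above the median of the other 13 libraries, against 28.7% of the 418 names. The median difference was 3.32 on log2(RPM + 1) against −0.33 over all names. Both members and miR-122* are on the list, and 3.32 is the value of miR-802 itself. With reads in liver only, miR-122* could lie nowhere but above there, so these figures are not independent of the members. miR-122 stood 13.44 above the median of the other libraries in liver. miR-192 and miR-194, which are processed from shared primary transcripts and are also abundant in gut, stood 5.52 and 4.82 above. miR-802 stood 3.32 above, next to miR-101b at 3.58 and miR-148a at 3.13, and miR-101a was the 1 name below, at −0.10.

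Liver was the highest tissue for 4 of the 11 hepatocyte names, namely miR-122, its star arm miR-122*, miR-192 and miR-101b. The share of all names with their peak in liver was not counted, so these peaks are given as a description only. miR-148a, a miRNA also known from pancreas, shared its 2 leading tissues with miR-802*, with 625591 RPM in pancreas and 17834 in liver. miR-194 was highest in small intestine at 10206 RPM, with 2124 in liver, and miR-22, miR-101a, miR-193 and miR-365 were highest in kidney.

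In pancreas 2 of the 11, miR-148a and miR-802, lay above the median of the other libraries, 8 lay below and miR-122* was at 0 in both. The share of all names above was 16.3% there. The list median was −1.78 in pancreas against −1.05 over all names, but 0.079 with median-of-ratios factors. In small intestine miR-802 stood 5.52 (log2) above the median of the others, between miR-194 at 7.08 and miR-192 at 4.97, while miR-122 stood at −2.69.

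Of 6 pancreas names, 5 lay above the median of the others in pancreas, where 16.3% of all names did. Their list median was 7.20, and miR-802 stood 6.04 above. Of 8 gut and kidney tubule names, 8 lay above in small intestine (53.3% of all names did) and 4 in pancreas (16.3%). The lists share members, since miR-148a of the pancreas list and miR-192 and miR-194 of the tubule list are also hepatocyte names. In kidney 7 of the 8 tubule names lay above, as did 68.7% of all names, and miR-802 stood 1.50 and miR-122 3.36 above the median of the others.

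**Figure D4:**
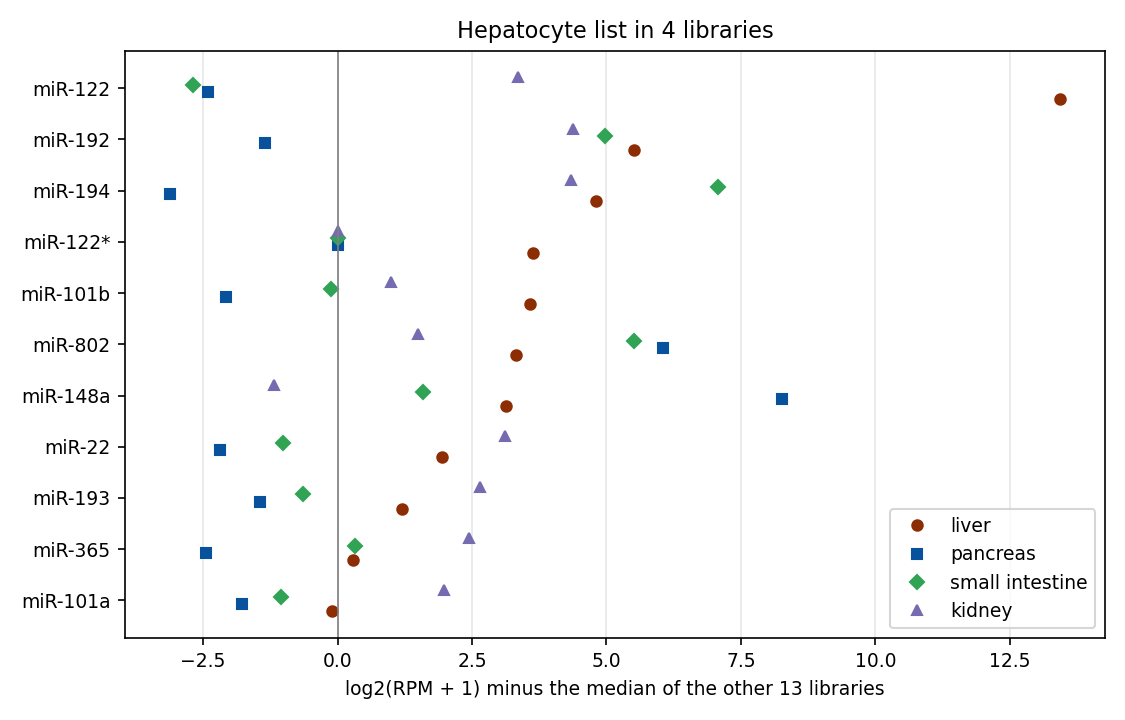
Difference of log2(RPM + 1) from the median of the other 13 libraries for the 11 names of the hepatocyte list, in liver, pancreas, small intestine and kidney. Points are single libraries and the line at 0 marks no difference. miR-122 is at 13.44 in liver and −2.40 in pancreas, while miR-802 is at 3.32 in liver, 6.04 in pancreas and 5.52 in small intestine.

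Names with the pattern most like each member were taken by Pearson's r on log2(RPM + 1) over the 14 tissues, among 417 names. For miR-122 they were miR-122* (r = 0.89), miR-101b (0.72), miR-365-2* (0.70), miR-193* (0.68) and miR-1944 (0.54). Apart from the star arm, miR-101b alone of these peaked in liver, at 14234 RPM with 3334 in brain. miR-365-2*, miR-193* and miR-1944 were highest in kidney, at 34.4, 19.5 and 69.0 RPM, and had 23.5, 12.9 and 43.0 RPM in liver. Without the liver library, 0 of these 5 names were among the 5 nearest, and by Spearman's rho 1 was. miR-122* had 0 reads outside liver, so its r rests on that library alone, and its rho was 0.45.

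For miR-802 the nearest names were miR-802* (r = 0.92), miR-148a (0.75), miR-96 (0.65), miR-182 (0.60) and miR-216b* (0.60). miR-96 and miR-182 belong to the miR-183 cluster, known from sensory and secretory cells. miR-182 was highest in the library labelled uterus at 2294 RPM, with 1788 in small intestine, 1757 in lung and 1619 in pancreas. miR-96 had 35.9 RPM in small intestine, 31.5 in lung and 30.5 in pancreas. miR-802 itself stood at 3.91 RPM in the uterus library and 2.69 in lung. miR-216b* rests on 13 reads in all. Without the pancreas library, miR-802* was the 1 name of these that stayed among the 5 nearest, and its r was 0.90.

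miR-101b differs from its paralog miR-101a by 1 base over the 18 bases that their RefSeq sequences share, marked by a capital. The pair is shown because reads of such copies may be counted for either name.
miR-101a-3p: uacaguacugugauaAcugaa
miR-101b-3p: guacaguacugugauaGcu
miR-101b had 4.85 (4.77–4.92) reads per read of miR-101a in liver. In the other 13 libraries this ratio ran from 0.164 (0.155–0.173) in cerebellum to 0.779 (0.760–0.798) in small intestine, so liver was the 1 library in which miR-101b exceeded miR-101a. On GRCm38.p6 the mature miR-101a lies at chr4:101346957-101346977 (minus strand) and the mature miR-101b at chr19:29135338-29135356 (plus strand).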

How the data were processed

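The deposited table holds raw counts, whole numbers for each mature miRNA in 14 libraries, with no scaling applied by the authors that the values show. The labels' protocols state Trizol extraction, pooling of total RNA and standard Illumina libraries. Trimming, aligner, miRNA release, genome build and the handling of reads that match several names are, for this table, not given in the sources used here. All 14 columns were matched to tissues by name. Library totals ran from 622132 (pancreas) to 9341000 (small intestine) reads. The floor of 3 reads, used for counts of 0, is 4.82 RPM in pancreas and 0.321 RPM in small intestine. The exact upper bounds at 0 reads are higher, at 5.93 and 0.395 RPM.

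Counts were divided by library totals (RPM). Levels have exact Poisson intervals, shares exact Clopper-Pearson binomial intervals, and folds exact conditional binomial intervals, all at 95% (Python 3.11.15, scipy 1.17.1, pandas 2.3.3). Reads carry no molecular identifiers, so these cover counting error only. Alternatives were 3 other scalings, other minimum levels and folds, a pseudocount of 10 RPM, Spearman's rho and left-out libraries.

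Beyond both members and their star arms, the names reported are those on the hepatocyte, pancreas and gut and kidney tubule lists, the 5 nearest to each member, those sharing a seed, and the leading names of liver and pancreas. Members and lists were chosen with earlier results of these data known. miR-137 and miR-378 are named for comparison. As a check of labels, each list of organ markers had its highest median in its own tissue, except the pancreatic endocrine name miR-375. That name was highest in the library labelled uterus, at 344 RPM against 154 in pancreas. Blood cell markers were highest in spleen, and endothelial and multiciliated markers in lung. The hepatocyte markers were miR-122 and miR-122*, so the check of the liver label rests on values reported here as results. No list was specific to stomach, colon, uterus or cerebellum, and those labels were not checked in this way. The intestinal names bear on colon and uterus, however. With library totals their sum was lowest in the library labelled colon, at 25.2 RPM, where miR-143 took 98.7% of the reads. In the library labelled uterus it was 78772 RPM, second to small intestine. Whether either label holds was not tested.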

Additional observations from a re-analysis of the deposited data

How the results depend on the processing

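The value of liver over the second tissue for miR-122 was 1471 with median-of-ratios factors, 348 with totals without miR-143 and 437 when the 5 most abundant names left the totals, all against the library labelled colon instead of kidney. That library has 86545 reads other than miR-143. For miR-802, pancreas over liver was 19.2 with median-of-ratios factors and 14.3 once the 5 most abundant names left the totals, while pancreas over small intestine was 5.36 with the former and turned to 0.695 with totals without miR-143.

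Tau of miR-122 was 0.736 with median-of-ratios factors, 0.609 with totals without the 5 most abundant names, 0.667 with totals without miR-143, 0.853 with a pseudocount of 10 RPM, 0.698 without the libraries labelled colon, ovary and pancreas and 0.721 without those labelled colon and uterus. Tau of miR-802 was 0.767, 0.584, 0.617, 0.817, 0.680 and 0.668 in the same order. Tissue-enriched names numbered 89 with no filter on low values, 15 with a minimum of 1000 RPM, 73 at 3-fold and 23 at 10-fold, because those limits admit more or fewer names. miR-122 was called in liver under each of the 10 alternatives tried, and miR-802 under 1 of them, median-of-ratios factors, in pancreas.

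The hepatocyte list stood in liver at 3.44 with median-of-ratios factors, 2.41 with totals without the 5 most abundant names, 2.17 with totals without miR-143 and 1.99 with a pseudocount of 10 RPM. In pancreas it stood at 0.079, −1.72, −2.93 and −1.34 in the same order. Of the 5 names nearest to miR-122, Spearman's rho kept 1, totals without the 5 most abundant names 3, a minimum of 100 RPM 1, no filter 1 and leaving out liver 0. Of those nearest to miR-802, Spearman's rho kept 2, median-of-ratios factors 3, totals without the 5 most abundant names 2, totals without miR-143 2, a minimum of 100 RPM 3, no filter 3 and leaving out pancreas 1. With star reads added, the ratio of miR-122 to miR-802 in liver was 6365.

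Hairpins with a star ratio at least 4 times lower in small intestine than in liver numbered 11 of 76, 15 of 90 with a minimum of 50 reads and 6 of 59 with one of 200 reads. Leaving out the colon and uterus libraries together, the other arm minimums, the pseudocount of 1 RPM and the scalings of pancreas over small intestine were chosen after seeing the data. Where no construction of an alternative shows the cause of a change, the cause was not tested. No paired analysis was possible because each tissue has 1 library. Depth limits miR-122 in ovary (3 reads) and pancreas (6 reads), and miR-802 in cerebellum, spleen, heart, ovary and the colon library (4 reads or fewer).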
